A study of Mus musculus with 8 samples.

Results

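The 6 genes of type IV collagen, Col4a1 to Col4a6, were followed in fiber cells (FC) of the mouse lens, in untreated control (Ct) mice and in mice exposed to cigarette smoke (CS). All 6 were found by symbol among the 35275 genes of the deposited table, and all 6 passed the minimum of 1 FPKM used for testing. FPKM are fragment counts scaled to the length of the transcript and to the mapped fragments of the library. The 8 libraries were made from FC of C57BL/6 mice, named C57BL/6J in the study's methods, 4 libraries of each group, and each library pooled FC from the right lenses of 4 mice. Smoke was given in a whole-body chamber for 5 hours/day on 5 days/week from around birth to an age of 3.5 months, and age-matched Ct mice were kept in the animal facility. The lens epithelium was dissected away before RNA extraction. The study's methods give equal numbers of male and female pools in each group. Which were which was not given for each library, and is read below from the level of Xist. A pool gives 1 value for its 4 mice, so the spread between libraries is a spread between pools.

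Type IV collagen is the collagen of basement membranes, where its molecules join into a sheet-like network instead of fibrils. A molecule is a trimer of chains, and only certain trimers form: Col4a1 with Col4a2, which is found in nearly all basement membranes, Col4a3 with Col4a4 and Col4a5, and Col4a5 with Col4a6. The lens capsule is an unusually thick basement membrane around the whole lens, laid down by the epithelium in front and by elongating FC behind. Loss of Col4a3, Col4a4 or Col4a5 causes Alport syndrome, a disease of kidney, ear and eye in which the lens can bulge through a thin capsule, and dominant variants of Col4a1 and Col4a2 cause disease of small vessels and can cause cataract. The 6 genes lie as 3 pairs of neighbours that are transcribed away from each other.

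These pairs were read from the annotation of GRCm38. Col4a1 lies on chromosome 8 from 11198423 to 11312826 on the minus strand and Col4a2 from 11312805 to 11449287 on the plus strand, so that the annotated ends of their first exons overlap by 22 bases. Col4a4 lies on chromosome 1 from 82448423 to 82586849 on the minus strand and Col4a3 from 82586921 to 82722059 on the plus strand, 71 bases apart. Col4a6 lies on chromosome X from 141165403 to 141474076 on the minus strand and Col4a5 from 141475385 to 141689234 on the plus strand, 1308 bases apart. The sequences at these starts, from the RefSeq promoter windows of build GRCm38.p6, are shown because each pair shares, or nearly shares, 1 start region, and the ratios of the paired chains are reported after it. Capitals mark the letters GGGCGG and CCAAT or their reverse complements.
Shared start of Col4a1 and Col4a2, chr8:11312805-11312826, plus strand: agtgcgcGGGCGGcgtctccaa
Between Col4a4 and Col4a3, chr1:82586850-82586920, minus strand: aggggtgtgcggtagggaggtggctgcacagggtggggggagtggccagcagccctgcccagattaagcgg
Upstream of Col4a5, chrX:141475169-141475369, plus strand: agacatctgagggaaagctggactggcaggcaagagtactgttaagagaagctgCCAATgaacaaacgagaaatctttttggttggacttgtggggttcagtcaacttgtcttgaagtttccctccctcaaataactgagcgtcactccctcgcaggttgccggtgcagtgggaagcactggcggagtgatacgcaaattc
Upstream of Col4a6, chrX:141474096-141474326, minus strand: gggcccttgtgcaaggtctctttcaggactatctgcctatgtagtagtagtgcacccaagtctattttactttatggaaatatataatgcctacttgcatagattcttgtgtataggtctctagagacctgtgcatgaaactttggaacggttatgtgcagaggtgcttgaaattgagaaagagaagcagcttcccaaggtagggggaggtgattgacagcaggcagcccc

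The letters G and C made up 72.7% of the start shared by Col4a1 and Col4a2 and 69.0% of the stretch between Col4a4 and Col4a3, and 49.8% and 45.5% of the stretches upstream of Col4a5 and Col4a6. Windows of 300 bases, 250 before a start and 50 after it, were at hand for 5 of the 6 genes. On either strand the letters CCAAT were found once each in the windows of Col4a1, Col4a2 and Col4a5, and in 37.4% of 32851 such windows of all genes. The letters GGGCGG were found 3 times in the window of Col4a2, once each in those of Col4a1, Col4a5 and Col4a6, and in 35.7% of all windows. None of the 5 windows held TATAAA, a form of the TATA box that 13.6% of all windows held on either strand. The windows of Col4a1 and Col4a2 overlap in part, so their matches are not independent.

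In lens FC the chains were expressed at widely different levels, with Col4a1 highest and Col4a6 lowest. Over the 8 libraries Col4a1 ranged from 110.2 to 182 FPKM and Col4a6 from 10.7 to 14.4 FPKM. By mean FPKM of the 8 libraries, Col4a1 was gene 272 of the 35275, Col4a2 583, Col4a3 921, Col4a5 1564, Col4a4 1576 and Col4a6 2365. Since FPKM is scaled to length, levels of different genes can be set side by side. The chains of a pair differed in level: Col4a1 exceeded Col4a2, Col4a3 exceeded Col4a4, and Col4a5 exceeded Col4a6 in each of the 8 libraries.

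**Figure D1:**
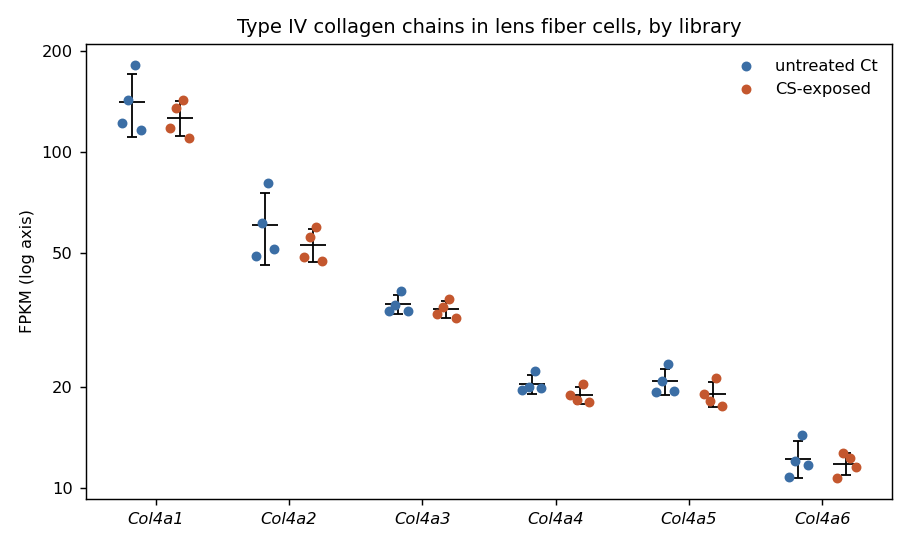
FPKM of the 6 chains in each library on a log axis. Blue points are the 4 untreated Ct libraries, orange points the 4 CS-exposed libraries, in the order of their replicate numbers, and bars give the mean ± SD; Col4a1 lies between 110.2 and 182 FPKM, Col4a6 between 10.7 and 14.4 FPKM, and the groups overlap for every chain.

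Neighbours in the order of levels were compared within libraries with a two-sided exact sign-flip permutation test over the 8 libraries, adjusted over the 5 steps. The order was taken from the same libraries, so these p values describe how regular the steps were and are no independent test of the order. Col4a1 was 2.36-fold above Col4a2, Col4a2 1.62-fold above Col4a3, Col4a3 1.75-fold above Col4a5, and Col4a4 1.64-fold above Col4a6. Each of these 4 steps had the same direction in 8 of 8 libraries (exact permutation p = 0.00781, the smallest that 8 libraries allow, adjusted p = 0.00977). Col4a5 and Col4a4 were not distinguished. Their ratio averaged 1.01, and Col4a5 was the higher of both in 4 of 8 libraries (exact permutation p = 0.375, adjusted p = 0.375).

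The place of Col4a4 depends on the length by which its reads are divided. The lengths behind the FPKM were recovered from the steps of the values and an estimated total of fragments. They were equal to the annotated length of the main coding transcript of each gene: 6615 bases for Col4a1, 6450 for Col4a2, 8554 for Col4a3, 10108 for Col4a4, 6536 for Col4a5 and 6648 for Col4a6. The coding sequences of the 6 transcripts are nearly equal in length, from 5007 to 5121 bases, so that the transcripts of Col4a3 and Col4a4 carry the longest non-coding ends. A longer assumed transcript gives a lower FPKM for the same reads, and coverage along the transcripts was not analysed here. With all reads set against the coding sequence alone, an alternative chosen after seeing the data, Col4a4 lay above Col4a5 in 8 of 8 libraries, with mean ratios of 1.53 ± 0.0519 in Ct mice and 1.55 ± 0.0415 in CS-exposed mice (SD, n = 4 each). On that scale the log2 step from Col4a3 up to Col4a2 was 0.25 and that from Col4a6 up to Col4a4 was 1.32. Each had the same direction in all 8 libraries (exact permutation p = 0.00781). A change of length moves a ratio by the same factor in every library, so the agreement of the 8 libraries is no added evidence for this scale. Reads from the non-coding ends stay counted while their bases are left out, which raises Col4a3 and Col4a4 most. The order Col4a1, Col4a2, Col4a3 was kept, with means of 177, 71.6 and 59.3 fragments on the FPKM scale with the coding length in place of the transcript length (8 libraries each).

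Col4a1 and Col4a2, the chains of the general network, are given first. Col4a1 was at 122, 143, 182 and 116 FPKM in untreated Ct replicates 1 to 4 and at 118, 135, 143 and 110.2 FPKM in CS-exposed replicates 1 to 4. Ct replicate 3 stood above the other 7 libraries, and the groups overlapped. The group means were 141 ± 29.8 FPKM in Ct mice and 127 ± 15.1 FPKM after CS exposure (SD, n = 4 each). On the log2 scale CS-exposed libraries differed from Ct libraries by -0.14 ± 0.13 (SE; limma adjusted p = 0.976, exact permutation p = 0.457), and the 95% interval of the fold ran from 0.749 to 1.10.

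Col4a2 was at 49.1, 61.5, 81.1 and 51.3 FPKM in Ct mice and at 48.7, 55.7, 59.9 and 47.5 FPKM in CS-exposed mice. It followed Col4a1 from library to library, again with Ct replicate 3 on top. The group means were 60.8 ± 14.6 and 53.0 ± 5.88 FPKM (SD, n = 4 each). The difference on the log2 scale was -0.17 ± 0.14 (SE, limma adjusted p = 0.956, exact permutation p = 0.400), with a 95% interval of the fold from 0.718 to 1.09.

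Col4a3, Col4a4 and Col4a5 form the trimer that is missing in Alport syndrome. Col4a3 was at 33.7, 35.0, 38.5 and 33.7 FPKM in Ct mice and at 33.0, 34.7, 36.7 and 32.2 FPKM in CS-exposed mice. The libraries of both groups lay among each other, with means of 35.2 ± 2.26 and 34.1 ± 1.98 FPKM (SD, n = 4 each). The log2 difference was -0.05 ± 0.06 (SE, limma adjusted p = 0.985, exact permutation p = 0.457), and the fold lay within 0.879 to 1.07 at 95%.

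Col4a4 was at 19.5, 19.9, 22.4 and 19.9 FPKM in Ct mice and at 19.0, 18.3, 20.4 and 18.03 FPKM in CS-exposed mice. All CS-exposed libraries but replicate 3 lay below every Ct library. Col4a5 was at 19.4, 20.8, 23.4 and 19.5 FPKM in Ct mice and at 19.1, 18.2, 21.3 and 17.6 FPKM in CS-exposed mice. Here too the CS-exposed libraries other than replicate 3 lay below every Ct library. At least 3 CS-exposed libraries below every Ct library were found for 6.69% of the 9794 genes tested. The log2 differences were -0.11 ± 0.07 for Col4a4 and -0.13 ± 0.08 for Col4a5 (SE, exact permutation p = 0.114 and 0.200), with 95% intervals of the fold from 0.835 to 1.03 and from 0.809 to 1.04. Both genes had an adjusted p value of 0.956 in the limma fit, and the study named both from these same libraries, so they are not an independent choice.

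Col4a6, whose chain joins Col4a5 in the remaining trimer, was at 10.8, 12.1, 14.4 and 11.7 FPKM in Ct mice and at 10.7, 12.8, 12.3 and 11.5 FPKM in CS-exposed mice. All CS-exposed libraries but replicate 1 lay within the range of the Ct libraries, and the means were 12.3 ± 1.53 and 11.8 ± 0.905 FPKM (SD, n = 4 each). The log2 difference was -0.04 ± 0.10 (SE, limma adjusted p = 0.989, exact permutation p = 0.714), with a 95% interval of the fold from 0.839 to 1.12. Col4a5 and Col4a6 are on the X chromosome, and Xist, the RNA of the inactive X chromosome, was at most 0.0113 FPKM in replicates 1 and 2 of both groups and at least 41.1 FPKM in replicates 3 and 4. By this reading replicates 1 and 2 were pools of males and replicates 3 and 4 pools of females, in both groups alike.

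None of the 6 chains passed an adjusted p value of 0.05 in the limma fit over all genes, which called 0.0102% of the 9794 genes tested, nor did any chain have an unadjusted p value under 0.05, which 4.83% of all genes had in either direction and 2.08% with a lower level in CS-exposed mice. Groups that did not overlap were found for 0 of the 6 chains and for 3.08% of all genes. The log2 fold change was below 0 for all 6 chains, with a median of -0.12, and below 0 for 48.8% of all genes, with a median of 0.0043. The chains share their libraries, so that 1 library that is high in all of them moves all 6 values at once. In bulk RNA, fewer cells of a type and less RNA per cell cannot be told apart.

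Ct replicate 3 was such a library. It had the highest value of the 8 libraries for all 6 chains, where 16.8% of the genes tested had their highest value in it. Against the mean of the other 3 Ct libraries it was at 1.43 times the level for Col4a1, 1.5 for Col4a2, 1.13 for Col4a3, 1.13 for Col4a4, 1.18 for Col4a5 and 1.25 for Col4a6. Without it the log2 fold changes moved to -0.01 for Col4a1, -0.03 for Col4a2, -0.0025 for Col4a3, -0.07 for Col4a4 and -0.07 for Col4a5. That of Col4a6 turned to 0.04.

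**Figure D2:**
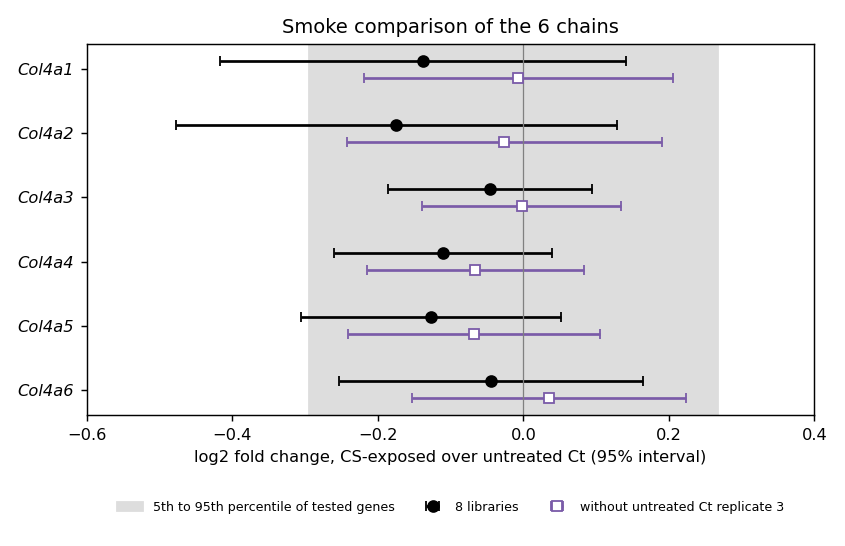
Log2 fold change of each chain, CS-exposed over untreated Ct, with its 95% interval from limma for all 8 libraries (black) and without untreated Ct replicate 3 (open purple squares). The grey band spans the 5th to 95th percentile of the genes tested, from -0.29 to 0.27; without this library the value of Col4a1 lies at -0.01 and that of Col4a2 at -0.03.

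Of 9 markers of the lens epithelium, the layer removed at dissection, 7 were highest in Ct replicate 3, the exceptions being Dkk3 and Mki67. The mean was lower in CS-exposed than in Ct mice for 7 of the 9, the exceptions being Dkk3 and Pdgfra. Foxe3, a transcription factor of the epithelium, was at 33.1, 34.8, 64.0 and 25.1 FPKM in Ct mice and at 28.9, 32.5, 34.6 and 17.5 FPKM in CS-exposed mice. Cdh1, which encodes E-cadherin and is switched off as FC form, was at 2.26, 3.09, 6.22 and 2.98 FPKM and at 2.10, 3.71, 4.17 and 2.22 FPKM. Ct replicate 3 was the highest library for both, and CS-exposed replicate 3 the highest of its group. The summed FPKM of the 9 markers ranged from 499 to 577 in Ct mice and from 493 to 554 in CS-exposed mice, and most of it was Dkk3, with a mean of 449 FPKM. Without Dkk3 the sum was 65.8, 72.9, 117 and 59.0 FPKM in Ct mice and 59.9, 67.0, 77.0 and 47.6 FPKM in CS-exposed mice, with Ct replicate 3 above the other 7 libraries. Mki67, a gene of dividing cells, was at most 0.246 FPKM. The part of the epithelium in the levels of the chains was not tested.

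**Figure D3:**
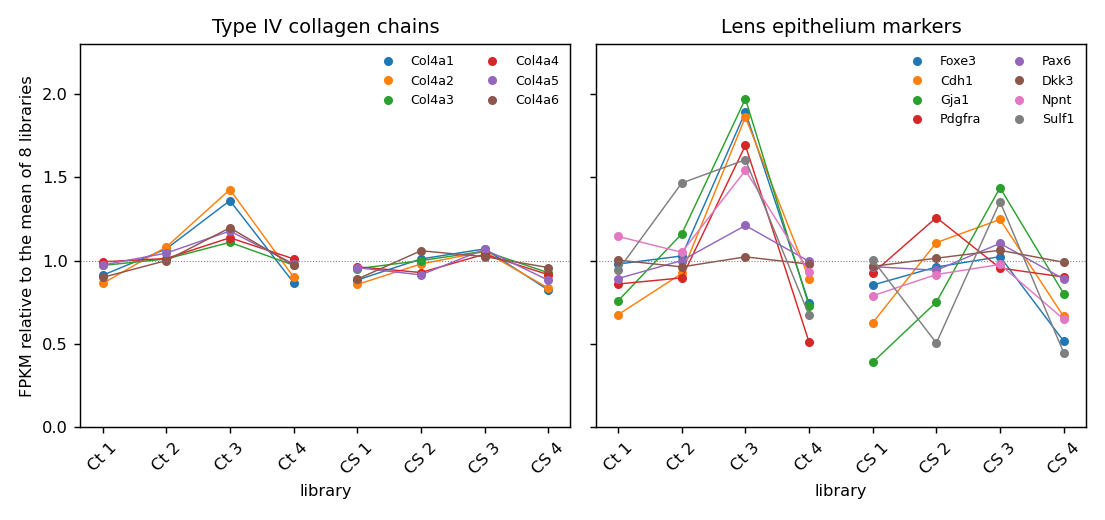
FPKM of each gene in each library, divided by the gene's mean over the 8 libraries, for the 6 chains (left) and for 8 markers of the lens epithelium (right). Thin lines only join the points of 1 gene within a group; every chain and 7 of the 8 markers shown are highest in untreated Ct replicate 3, with Col4a1 and Col4a2 above the other chains there.

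Cells of vessels are another source of Col4a1 and Col4a2 in most tissues. The summed FPKM of 7 endothelial markers was between 0.201 and 0.498 in every library, with Cldn5 at 0 in all 8. Of 6 pericyte markers, Pdgfrb was at a mean of 13.2 FPKM and the other 5 were each at most 0.116 FPKM. The sum of 5 fibroblast markers was at most 0.489 FPKM. The summed FPKM of 5 photoreceptor and of 5 pigment epithelium genes was 22.8 to 73.1 and 2.68 to 25.4 in CS-exposed pools, against 5.86 to 20.6 and 0.922 to 1.84 in Ct pools, with Best1 at 0 in all 8. Of 5 blood and macrophage genes the sum was 0.284 to 2.02 FPKM in Ct pools and 0.493 to 20.6 FPKM in CS-exposed pools, with CS-exposed replicate 4 apart through the hemoglobin genes Hbb-bs and Hba-a1, at 11.1 and 9.46 FPKM. Without CS-exposed replicate 4 the log2 differences were -0.07, -0.12, -0.02, -0.09, -0.09 and -0.03 for Col4a1 to Col4a6 in turn. CS-exposed replicate 3 had the highest sums of photoreceptor and pigment epithelium genes. Without it the log2 differences were -0.20, -0.24, -0.08, -0.15, -0.18 and -0.07 for Col4a1 to Col4a6 in turn (limma adjusted p = 0.956 for Col4a1 to Col4a5 and 0.977 for Col4a6). The part of these cells in the comparison was not tested. Of 10 lens FC markers, 9 were found, and all 9 were expressed, among them Cryaa at a mean of 95140 FPKM and Mip, the main water channel of FC, at 2462 FPKM.

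The chains differed in how much they varied among libraries of a group. The coefficient of variation within groups was 17.2% for Col4a1 and 18.7% for Col4a2, 6.11% for Col4a3, 6.07% for Col4a4, 8.75% for Col4a5 and 10.4% for Col4a6. Its median over the 2748 genes at or above 10 FPKM on average was 6.89%. The values rested on 1409 to 27967 reads each, for which counting error alone gives 0.733% for Col4a1 and 2.44% for Col4a6. Without Ct replicate 3 the values were 11.5% and 11.7% for Col4a1 and Col4a2 and 4.10% to 6.64% for the other 4 chains. These differences in spread were not tested.

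Ratios of chains within a library do not depend on how libraries were scaled to each other, and 6 of them were compared between groups by a two-sided exact permutation test over the 70 assignments of the libraries, adjusted over the 6. The ratio of Col4a1 to Col4a2 was 2.48, 2.33, 2.24 and 2.26 in Ct mice and 2.42, 2.42, 2.39 and 2.32 in CS-exposed mice. Although both chains spanned a wide range of levels, the highest ratio was only 1.11 times the lowest. The means were 2.33 ± 0.110 and 2.39 ± 0.0490 (SD, n = 4 each), a log2 difference of 0.04 (95% interval -0.05 to 0.13, exact permutation p = 0.371, adjusted p = 0.557).

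The ratio of Col4a3 to Col4a4 was 1.72, 1.76, 1.72 and 1.70 in Ct mice and 1.74, 1.90, 1.79 and 1.79 in CS-exposed mice. The CS-exposed libraries other than replicate 1 lay above every Ct library. The means were 1.72 ± 0.0256 and 1.80 ± 0.0663 (SD, n = 4 each). The log2 difference was 0.06 (95% interval -0.004 to 0.13, exact permutation p = 0.0571, adjusted p = 0.343), which is not past the threshold, and the smallest p value that 4 against 4 libraries allow is 0.0286. Without CS-exposed replicate 1 the log2 difference was 0.08 (unadjusted exact permutation p = 0.0286). That library was the only one of its group not above every Ct library, so leaving it out separates the groups and fixes this p value. Without CS-exposed replicate 2 the log2 difference was 0.04 (unadjusted exact permutation p = 0.0857). No other library left out gave an unadjusted p value under 0.05.

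The ratio of Col4a5 to Col4a6 was the most variable of the 3 pairs of neighbours, at 1.79, 1.73, 1.63 and 1.67 in Ct mice and 1.78, 1.43, 1.72 and 1.52 in CS-exposed mice. CS-exposed replicate 2 was the lowest library, and its ratio of Col4a3 to Col4a4 was the highest. The means were 1.70 ± 0.0713 and 1.61 ± 0.166 (SD, n = 4 each), a log2 difference of -0.08 (95% interval -0.28 to 0.12, exact permutation p = 0.314, adjusted p = 0.557).

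Within the trimer of Col4a3, Col4a4 and Col4a5, the ratio of Col4a4 to Col4a5 stayed between 0.955 and 1.03 in the 8 libraries, and its highest value was 1.07 times its lowest, less than for the other 5 ratios. Its means were 0.985 ± 0.0334 in Ct mice and 0.996 ± 0.0267 in CS-exposed mice (SD, n = 4 each), with an exact permutation p = 0.657 and an adjusted p = 0.789. These genes lie on different chromosomes. The ratio of Col4a3 to Col4a5 had means of 1.70 ± 0.0441 and 1.80 ± 0.0861 (SD, n = 4 each, exact permutation p = 0.143, adjusted p = 0.429). Col4a5 was at 0.150 ± 0.0171 of Col4a1 in Ct mice and at 0.151 ± 0.0122 in CS-exposed mice (SD, n = 4 each), and its highest value, 0.168 in Ct replicate 4, was 1.30 times its lowest, 0.129 in Ct replicate 3, more than for the other 5 ratios (exact permutation p = 0.886, adjusted p = 0.886).

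**Figure D4:**
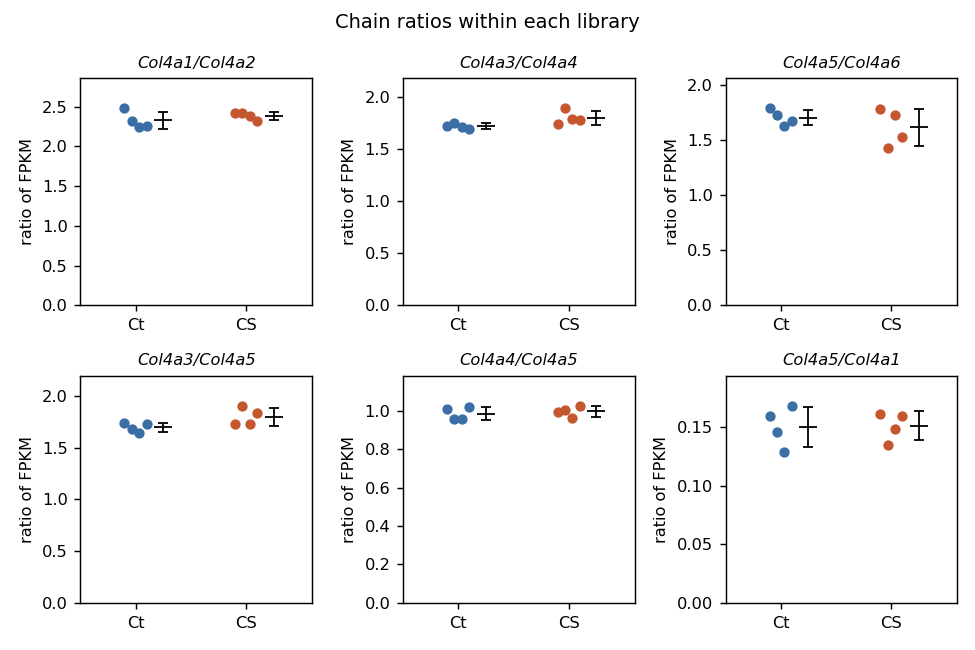
Ratio of the FPKM of 2 chains in each library, 1 panel for each of the 6 ratios, with axes that start at 0, untreated Ct (blue) and CS-exposed (orange) libraries in the order of their replicate numbers, and the mean ± SD beside them. The ratio of Col4a4 to Col4a5 stays between 0.955 and 1.03, and the ratio of Col4a5 to Col4a6 is lowest, at 1.43, in CS-exposed replicate 2.

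As a share of the summed FPKM of the 6 chains, Col4a1 and Col4a2 made up 69.1 ± 2.88% in Ct mice and 68.1 ± 1.44% in CS-exposed mice (SD, n = 4 each). Col4a3 and Col4a4 made up 19.5 ± 2.06% and 20.2 ± 0.979%, and Col4a5 and Col4a6 11.5 ± 0.825% and 11.7 ± 0.466%. The sum was 255, 292, 362 and 252 FPKM in Ct mice and 249, 275, 294 and 237 FPKM in CS-exposed mice. The share of Col4a1 and Col4a2 was highest, at 72.7%, in Ct replicate 3, the library with the highest sum, and at most 69.96% in the other 7. The differences between groups in these shares were smaller than the SD between libraries.

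The genes most like each chain over the 8 libraries were found by Pearson's r of log2 values among the 4694 genes at or above 5 FPKM on average. All points share the same 8 libraries, Ct replicate 3 among them, so r is a description only. Col4a1 was most like Ctsl, a lysosomal protease (r = 0.985), Col4a2 (r = 0.982) and Igfbp7, a secreted binding protein of the basement membrane (r = 0.981). Col4a2 was most like Hif1a, the oxygen-sensing transcription factor (r = 0.983), Col4a1 (r = 0.982) and Tkt, an enzyme of the pentose phosphate pathway (r = 0.976). For Col4a3 these were Igfbp7 (r = 0.985), Lacc1 (r = 0.967) and Col4a1 (r = 0.963).

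Col4a4 and Col4a5 were each other's closest chain (r = 0.977), and for both the fatty acid transport protein gene Slc27a1 (r = 0.975 and 0.983) and Pigs, a gene of GPI anchor attachment (r = 0.975 and 0.954), were the others. Col4a6 was most like Nupr1, a stress-induced nuclear protein gene (r = 0.964), Alad, a gene of heme synthesis (r = 0.947), and Col6a3, a chain of type VI collagen (r = 0.934), and no other type IV chain was among its 3. Igfbp7 spanned the widest range of FPKM among these genes, from 191 to 437 FPKM. Col4a3 and Col4a4, neighbours on chromosome 1, were not among each other's 3.

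Collagen chains are hydroxylated, glycosylated and folded in the endoplasmic reticulum before they leave the cell. Of 16 genes of folding and modification, 12 were tested and 0 had an adjusted p value under 0.05. The 2 at the highest level were P4ha1, a subunit of prolyl 4-hydroxylase, at 73.6 ± 8.40 FPKM in Ct and 77.5 ± 3.01 FPKM in CS-exposed mice, and Serpinh1, the collagen chaperone HSP47, at 37.9 ± 0.712 and 39.6 ± 2.49 FPKM (SD, n = 4 each). Plod1, a lysyl hydroxylase, was at 6.13 ± 0.809 and 7.21 ± 0.442 FPKM (SD, n = 4 each). Its log2 difference of 0.24 ± 0.10 (SE, limma adjusted p = 0.956) was the only one in these lists with an unadjusted p value under 0.05, which 4.83% of all genes tested had. The median log2 fold change of the 12 was 0.06, with 3 below 0. For export, 0 of 10 genes tested passed, the median was 0.03, and the highest were the small GTPases Sar1a and Sar1b, at 31.1 ± 1.501 and 27.5 ± 2.58 FPKM in Ct mice and 31.9 ± 1.06 and 28.6 ± 1.88 FPKM after CS exposure (SD, n = 4 each).

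Outside the cell the network is cross-linked. Pxdn, peroxidasin, which forms the sulfilimine bond between type IV molecules, was at 13.4 ± 2.11 FPKM in Ct and 12.7 ± 1.35 FPKM after CS exposure (SD, n = 4 each). Loxl2, a lysyl oxidase of the network, was at 2.49 ± 0.670 and 1.92 ± 0.599 FPKM (SD, n = 4 each, limma adjusted p = 0.956). Of 7 cross-linking genes 3 were tested and 0 passed, with a median log2 fold change of -0.07. Lox itself was at most 0.106 FPKM.

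Among 14 partners in basement membranes, 9 were tested, 0 passed, and 7 had a log2 fold change below 0, with a median of -0.09. Sparc, a collagen-binding protein, was at 315 ± 35.6 FPKM in Ct mice and 310.4 ± 32.3 FPKM in CS-exposed mice, and Nid1, nidogen, which links laminin to type IV collagen, at 128 ± 9.33 and 129 ± 5.24 FPKM (SD, n = 4 each). Nid1 was thus near the level of Col4a1, while Nid2 was at most 0.103 FPKM.

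Of 9 receptor genes 5 were tested and 0 passed. Itga6 was at 93.5 ± 3.62 FPKM in Ct and 92.8 ± 2.44 FPKM in CS-exposed mice, and Itgb1 at 37.5 ± 0.239 and 38.8 ± 2.36 FPKM (SD, n = 4 each). Both encode chains of a laminin-binding integrin. Of the receptors that bind collagen, Ddr1, a receptor tyrosine kinase, was at 13.7 ± 2.61 FPKM in Ct mice and 13.6 ± 1.39 FPKM in CS-exposed mice (SD, n = 4 for both), Ddr2 was at most 1.14 FPKM, and the integrin genes Itga1 and Itga2 were at most 0.0762 and 0.748 FPKM. Of 10 genes of breakdown and its inhibitors 5 were tested and 0 passed. Ctsl was at 75.3 ± 23.1 and 65.4 ± 13.6 FPKM, and Timp2, an inhibitor of matrix metalloproteinases, at 49.5 ± 0.912 and 49.2 ± 1.87 FPKM (SD, n = 4 each). Mmp2 and Mmp9, the gelatinases that cleave type IV collagen, were at most 0.314 and 0.174 FPKM.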

How the data were processed

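RNA of 8 libraries of lens FC was sequenced as paired reads. According to the submitters' processing notes and the series text, the authors aligned reads to GRCm38 with STAR 2.5, used HTSeq 0.6.1 for gene counts, and the values they deposited are FPKM, 1 column a library. The annotation release is not given in the sources used here. Group means, fold changes and p values of the authors' own comparison stand in the same table and were not used. Groups and replicate numbers came from the sample titles.

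Genes whose mean reached 1 FPKM in Ct or CS-exposed mice entered a limma 3.58.1 fit (lmFit, then eBayes with a variance trend; R 4.3.3) of log2(FPKM + 0.1), two-sided, with Benjamini-Hochberg adjustment over 9794 genes. Fold changes on this scale understate those of low genes. Single values and ratios were compared by exact permutation in Python 3.11.15 with numpy 2.4.6. The fit was checked on simulated data.

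FPKM rise in steps of 1 read. Whole reads, within 0.01 of an integer in all libraries, were found for 9772 of 9794 genes (99.8%), with relative depths of 0.910 to 1.17. With the summed length of all exons of each gene in GENCODE (GRCm38), overlaps counted once, this came to an estimated 18100000 to 23300000 fragments per library. On this total 773 of 9261 genes coincided within a relative 0.0001. Exons of Col4a2 and Col4a3 overlap those of Gm15419 and C430014B12Rik, both under 1 FPKM in every library. Strand use in counting is not given in the sources used here.

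The chains, ratios and gene lists were chosen with earlier results of these data known. Named with values were the chains, the 2 highest genes of each list and those with a limma p value under 0.05, and the 3 genes most like each chain. Markers, low genes and Ddr1, named as levels, were chosen after their values were seen. Alternatives were other pseudocounts and minima, median centring, quantile normalization, eBayes without or with a robust trend, a block for the replicate number, and each library left out in turn. Limma-voom on recovered reads and reads per coding base were added after seeing the data. Protein sequences were not used here.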

Additional observations from a re-analysis of the deposited data

Results flagged for a closer look

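Among 24 groups of 4 values, the 6 chains and 6 ratios in both groups, 1 held a library far from the other 3 by Dixon's criterion, where chance gives about 1.2. This was Col4a4 in untreated Ct mice. Replicate 3 had 22.4 FPKM, and the remaining Ct libraries had 19.5 to 19.9 FPKM.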

How the results depend on the processing

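None of the 6 chains had an adjusted p value under 0.05 in any of 19 alternatives, the smallest limma adjusted p being 0.90. The direction was kept for Col4a1 to Col4a5. When single libraries were left out in turn, that of Col4a6 lay between -0.1009 and 0.0356 and the log2 difference in the ratio of Col4a5 to Col4a1 between -0.0615 and 0.0663, so both changed sign there, and the cause was not tested. The other ratios kept their sign, between 0.0193 and 0.0687 for Col4a1 to Col4a2, 0.0404 and 0.0818 for Col4a3 to Col4a4, 0.0536 and 0.1014 for Col4a3 to Col4a5, 0.0022 and 0.0339 for Col4a4 to Col4a5, and -0.1318 and -0.0255 for Col4a5 to Col4a6, the last without CS-exposed replicate 2. Ranges over the same fits were -0.22 to -0.01 for Col4a1, -0.27 to -0.03 for Col4a2, -0.08 to -0.0025 for Col4a3, -0.15 to -0.07 for Col4a4 and -0.18 to -0.07 for Col4a5, with Ct replicate 3 giving the value nearest 0 for each.

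In the Ct libraries alone the steps in level were 1.22 (Col4a1 over Col4a2), 0.76 (Col4a2 over Col4a3), 0.76 (Col4a3 over Col4a5) and 0.74 (Col4a4 over Col4a6) on the log2 scale, where 4 libraries cannot reach a p value under 0.05 in this permutation test. With reads per coding base, chosen after seeing the data, Col4a5 was below Col4a4 by a log2 ratio of -0.62, since the length is the sole change.

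Over all genes, 1 had an adjusted p value under 0.05 as reported, 0 without a minimum FPKM (862 with an unadjusted p value under 0.05), 0 with eBayes without a trend (498 unadjusted), 0 to 1 when 1 library was left out (418 to 525 unadjusted), and 2 with limma-voom on recovered reads. A minimum of 5 FPKM gave 226 genes with an unadjusted p value under 0.05, against 473 as reported, as fewer genes were tested.

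Same-numbered libraries deviated together with correlations of 0.012, 0.0777, 0.111 and 0.161 across genes. These were not all over 0.1, so the numbers were not taken as pairs. However, 3 of 4 Ct libraries correlated best with the CS-exposed library of their own number. By Xist, the replicate number also went with the sex of the pools in both groups. The main fit and the permutation tests between groups did not take this into account. With the replicate block 5 genes had an adjusted p value under 0.05, and Col4a1 and Col4a2 had unadjusted limma p values of 0.0446 and 0.0399. Col4a5 without CS-exposed replicate 3 had an unadjusted limma p value of 0.0484 at a log2 difference of -0.18, and no other chain had one under 0.05 in these alternatives.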
